A study of Homo sapiens with 4 samples.

Results

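The genes described here are 37 genes of glycolysis and of the response to low oxygen, out of 58735 genes in the deposited files. They were taken by gene symbol, and all 37 were found. They comprise 17 glycolytic enzymes, 4 transporters of glucose and lactate, 5 regulators of glycolytic flux and 11 other hypoxia genes. With a minimum mean FPKM (fragments scaled to gene length and library size) of 1 over the libraries, 35 of the 37 remained, beside 12949 of all genes. ALDOC and EGLN3 fell short of it and are described by their reads.

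RNA of U251 and U87, both established human glioblastoma (GBM) cell lines, was sequenced from cells labelled Control, which were not given Bru, and from cells exposed for 48 h to Bru at the inhibitory concentration the study had determined. Bru is brusatol, a plant compound that is known to lower NRF2 and to inhibit protein synthesis. In its viability time courses the study used a higher Bru concentration for U251 than for U87. The concentration in each sequenced line is not stated. Dose and line therefore cannot be told apart where the effects of Bru are compared between lines. The sources used here describe ordinary humidified culture and no low-oxygen arm. There was 1 library per condition and 4 in all, so no p-value is given and each difference is one between libraries.

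Glycolysis splits glucose into pyruvate, and many tumour cells reduce this pyruvate to lactate and export it even where oxygen is present. When oxygen is low, prolyl hydroxylases of the EGLN family no longer mark the factor HIF1A for destruction, and HIF1A with its partner ARNT switches on glycolytic genes and genes for blood vessel growth, pH control and mitophagy. Glioblastoma is known for both, since it takes up much glucose and holds hypoxic zones around necrosis.

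The total of reads on genes was between 17083896 and 21453561 per library, recovered from the FPKM as whole fragments, and 3 reads on a gene of 1 kilobase equalled an FPKM of 0.143 to 0.172. Intervals below are exact 95% intervals of the ratio of reads. Without molecular identifiers they speak to counting error alone. In bulk RNA, fewer cells of a type and less RNA per cell cannot be told apart. Of the glial and glioma markers, VIM had an FPKM between 606 and 701 and CD44 one between 94.5 and 125. SOX2, a neural stem cell factor, had an FPKM of 129 and 91.2 in the U251 libraries and of 0 and 0.0457 in those of U87. GFAP, the astrocyte filament, had FPKM of 2.42 and 1.08 in U251, Control before Bru, and of 0.215 and 0.147 in U87. S100B, another astrocyte marker, had 9 reads in U251 Control and 0 in the other libraries. OLIG2, also a marker of this list, had 2 and 4 reads in U251, Control before Bru, and 38 and 61 in U87. Its log2 ratio in U87 without a pseudocount was 0.74 (95% interval 0.13 to 1.36). NES, a progenitor filament, was lower in both Bru libraries, with FPKM of 125 and 50.6 in U251 and 1.46 and 0.569 in U87. PDGFRA, a glioma receptor, had FPKM of 3.48 and 1.38 in U251, Control before Bru, and of 0.125 and 0.0885 in U87. Of 13 markers of other cell types, KRT18, KRT8 and SYT1 passed the minimum level, with FPKM of at most 14.3, 2.80 and 6.02. Their log2 ratios of Bru to Control were 0.56, -0.42 and -0.52 in U251. In U87 they were -0.62, -0.10 and -0.34, and the interval of KRT18 there, from 35 and 20 reads, included 0. The other 10 had at most 110 reads in a library, and the part of other cells in the results was not tested.

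Promoter windows of RefSeq (GRCh38.p14), from 250 bases before to 50 bases after each annotated start, were searched for the core of the hypoxia response element. The letters searched were ACGTG and GCGTG on both strands, and a palindromic CACGTG counts as a match on each strand. Of the 31 members with a window, 29 (93.5%) held at least 1 match in a window, compared with 71.3% of the 8979 genes that passed the minimum level and 52.4% of all 27305 genes in the table. Counted per window, the shares were 67.2% of 58, 61.6% of 13102 and 48.4% of 35116 windows, the table holding several windows for some genes. The windows of EGLN3 and PGAM1 held no match, and BNIP3L, NDRG1, PFKFB2, SLC16A1, SLC2A3 and VEGFA were not analysed here. The median GC content was 68.3% for the windows of members, 65.0% for those of genes that passed the minimum level and 58.7% for all windows. The stretches below belong to members on which the results turn. Each has 30 bases, 5′ to 3′ on the strand of the gene, with matches in capitals, and a match is a description of letters only.
GAPDH (chr12:6535171-6535200, plus strand, intron of the gene in GENCODE 29): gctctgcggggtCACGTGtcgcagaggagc
ENO1 (chr1:8878836-8878865, minus strand, exon): tcacccccctttcCACGCtactgcagccgt
LDHA (chr11:18394470-18394499, plus strand, exon): gactcaCACGTGggttcccgCACGTccgcc
PFKL (chr21:44299876-44299905, plus strand, upstream of the gene): ctgctcagggcccGCGTGacattgcacagg
SLC2A1 (chr1:42958827-42958856, minus strand, exon): gtagcaacagcgaGCGTGccggtcgctagt
SLC16A3 (chr17:82228968-82228997, plus strand, intron): gcggtgACGTGcgcgggggACGTGccgcgc
PFKFB3 (chr10:6202812-6202841, plus strand, intron): caccctcctcccCACGTGgaagggggctgg
PDK1 (chr2:172556065-172556094, plus strand, exon): ctgcccgcCACGTccctCACGTaccactcg
CA9 (chr9:35673897-35673926, plus strand, exon): ctcgtttccaatgCACGTacagcccgtaca
ADM (chr11:10304959-10304988, plus strand, exon): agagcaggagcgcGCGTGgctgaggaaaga

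The 37 genes spanned levels from 2 reads (EGLN3 in U87 Control) to an FPKM of 1197 (GAPDH in U251 Bru). GAPDH (ENSG00000111640, chr12:6533927-6538374), which oxidises glyceraldehyde phosphate, was the highest, with an FPKM of 883 in Control and 1197 in Bru for U251, and of 925 and 1064 for U87. ENO1 (ENSG00000074800), the common enolase, had FPKM of 553, 702, 629 and 635 when listed as U251 Control, U251 Bru, U87 Control, U87 Bru, the order kept below. PKM, which makes pyruvate, had FPKM of 449, 489, 492 and 488. These enzymes, with TPI1 and PGAM1, were the 5 highest by their mean over the 4 libraries. Together the 5 had a summed FPKM of 2650, 3130, 2667 and 2888, out of 3168, 3562, 3354 and 3620 for all 17 enzymes.

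**Figure D1:**
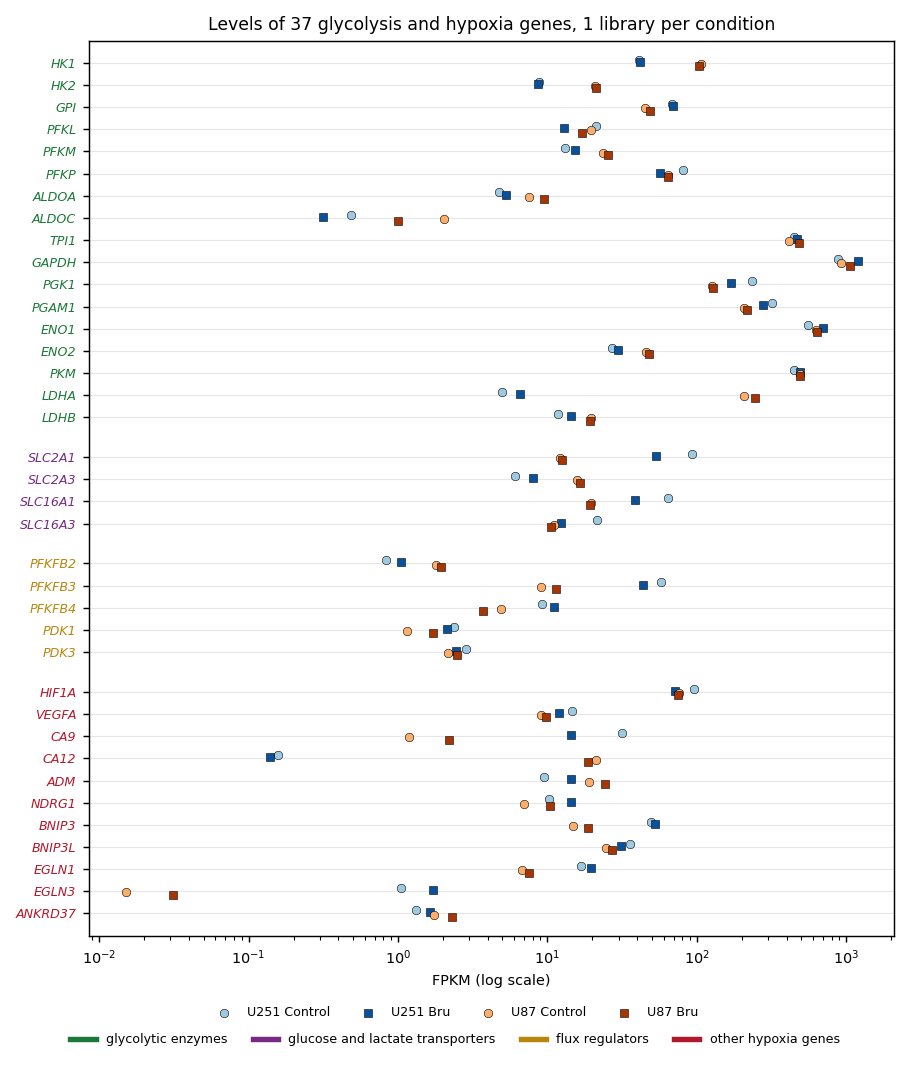
FPKM on a log scale of the 37 genes in the 4 libraries, circles for Control and squares for Bru, with gene names coloured by role. GAPDH, ENO1, PKM, TPI1 and PGAM1 have the highest means, with PGAM1 the lowest of them at 208 FPKM in U87 Control, whereas LDHA, CA9, CA12 and EGLN3 differ most between U251 and U87.

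The levels in the Control libraries were set side by side first, to give the level of each gene without Bru. Of the 35 members, 6 were over 2-fold higher in U87 Control than in U251 Control (background 14.5% of all genes), namely HK1, HK2, LDHA, SLC2A3, PFKFB2 and CA12. CA12 passed the minimum level only through U87, with FPKM of 0.156 and 0.140 in the U251 libraries. Another 6 were over 2-fold lower in U87 Control (background 16.0%), namely SLC2A1, SLC16A1, PFKFB3, CA9, BNIP3 and EGLN1. The median absolute log2 difference between the Control libraries was 0.83 for the members and 0.61 for all genes.

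LDHA (ENSG00000134333, chr11:18394388-18408425), the subunit of lactate dehydrogenase that favours lactate formation, had an FPKM of 4.998 and 6.59 for Control and Bru of U251, but of 206 and 245 for U87. Its level was 41.2-fold higher in U87 Control than in U251 Control (95% interval 38.1 to 44.6). LDHB, the subunit that favours pyruvate, had FPKM of 11.7, 14.4, 19.6 and 19.2 in the same order. LDHA thus made up 29.9% and 31.4% of the summed FPKM of LDHA and LDHB in the U251 libraries and 91.3% and 92.7% in the U87 libraries. No exon base of LDHA lies in another gene of GENCODE 29, and 4.03% of its 50-base stretches also occur in other genes. How reads that could be placed at several sites were counted is not given in the sources used here, and their part in the difference between the lines was not tested. For LDHB, 33.4% of the exon bases lie in AC010197.2, which held between 0 and 2 reads per library, and reads on such bases cannot be assigned with certainty.

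Glucose uptake genes were divided differently between the lines. SLC2A1 (GLUT1, ENSG00000117394, chr1:42925375-42959176) had FPKM of 92.9, 53.6, 12.1 and 12.5. SLC2A3, the high-affinity GLUT3, had FPKM of 6.03, 8.06, 15.8 and 16.5, and 16.1% of its 50-base stretches also occur in other genes. SLC2A1 made up 93.9% and 86.9% of their sum in U251 and 43.4% and 43.2% in U87. SLC2A1 was 7.66-fold lower in U87 Control than in U251 Control (95% interval 7.18 to 8.17), and SLC2A3 was 2.63-fold higher (2.41 to 2.86).

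The lactate transporters followed SLC2A1 in their order between the Control libraries. SLC16A1 (MCT1), which carries lactate and pyruvate in both directions, had FPKM of 64.6, 38.8, 19.6 and 19.3. SLC16A3 (MCT4), the exporter of highly glycolytic cells, had FPKM of 21.4, 12.4, 11.1 and 10.6. Both were highest in U251 Control.

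The carbonic anhydrases, enzymes at the cell surface that buffer acid, differed in opposite directions between the lines. CA9 (ENSG00000107159, chr9:35673856-35681159) had FPKM of 31.5, 14.3, 1.19 and 2.20, from 1105, 443, 36 and 64 reads. CA12 had FPKM of 0.156, 0.140, 21.2 and 18.8, from 24, 19, 2798 and 2391 reads. CA9 held 99.5% and 99.0% of their summed FPKM in the U251 libraries and 5.33% and 10.5% in those of U87, while the sums were 31.7, 14.5, 22.4 and 21.0.

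EGLN1 and EGLN3, prolyl hydroxylases that sense oxygen, were higher in U251. EGLN1 had FPKM of 16.9, 19.6, 6.82 and 7.55. EGLN3, itself a hypoxia target, had 162 and 233 reads in the U251 libraries and 2 and 4 in the U87 libraries, so that it was 69.8-fold lower in U87 Control than in U251 Control (95% interval 19.0 to 581). HIF1A, the oxygen-regulated subunit, had FPKM of 95.4, 71.4, 76.3 and 74.4, a narrow range beside these genes. Of other HIF pathway genes, EPAS1, ARNT and ARNT2 were named after their values were seen. EPAS1 (HIF2A) had FPKM of 3.92, 3.73, 50.7 and 56.6, and ARNT, the constitutive partner, had 6.47, 6.59, 0.578 and 0.547. ARNT2, the paralog of ARNT, differed the other way, with FPKM of 1.25, 1.23, 4.17 and 3.73.

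Bru was then compared with Control within each line. In U251, 0 of the 35 members were over 2-fold higher in Bru (background 3.36%) and 1 was over 2-fold lower (background 5.44%), which was CA9. At 1.5-fold, 1 was higher (ADM; background 11.3%) and 5 were lower (PFKL, SLC2A1, SLC16A1, SLC16A3 and CA9; background 15.6%). Log2 ratios of Bru to Control were computed on FPKM + 0.1, and intervals given beside such ratios are without that pseudocount. The median log2 ratio was 0.01 for the members and -0.03 for all genes. Of the 35 members, 19 lay above 0 and 16 below, beside 6110 above and 6741 below of the 12949 genes tested. The median absolute log2 ratio was 0.29 for the members and 0.34 for all genes. In U87, 0 members were over 2-fold higher (background 1.92%) and 0 over 2-fold lower (background 1.41%). At 1.5-fold, 1 was higher (CA9; background 4.56%) and 0 were lower (background 4.49%). There the median log2 ratio was 0.10 for the members and -0.04 for all genes, and the median absolute log2 ratio was 0.12 compared with 0.17. Of the 35 members, 26 lay above 0, beside 5474 of the 12949 genes tested. These counts over all genes are the background for log2 ratios counted above 0 in the roles and lists below.

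Counting intervals were also read for the 35 members tested and for all genes tested. In U251, 15 members had an interval wholly above 0 (background 30.9%) and 13 one wholly below 0 (background 35.9%). In U87, 16 were wholly above 0 (background 15.7%) and 3 wholly below (background 28.0%). Such an interval compares 2 libraries and does not include the spread between cultures. It also narrows as reads increase, and the members were not matched to all genes by reads. The part of read depth in these shares was not tested.

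**Figure D2:**
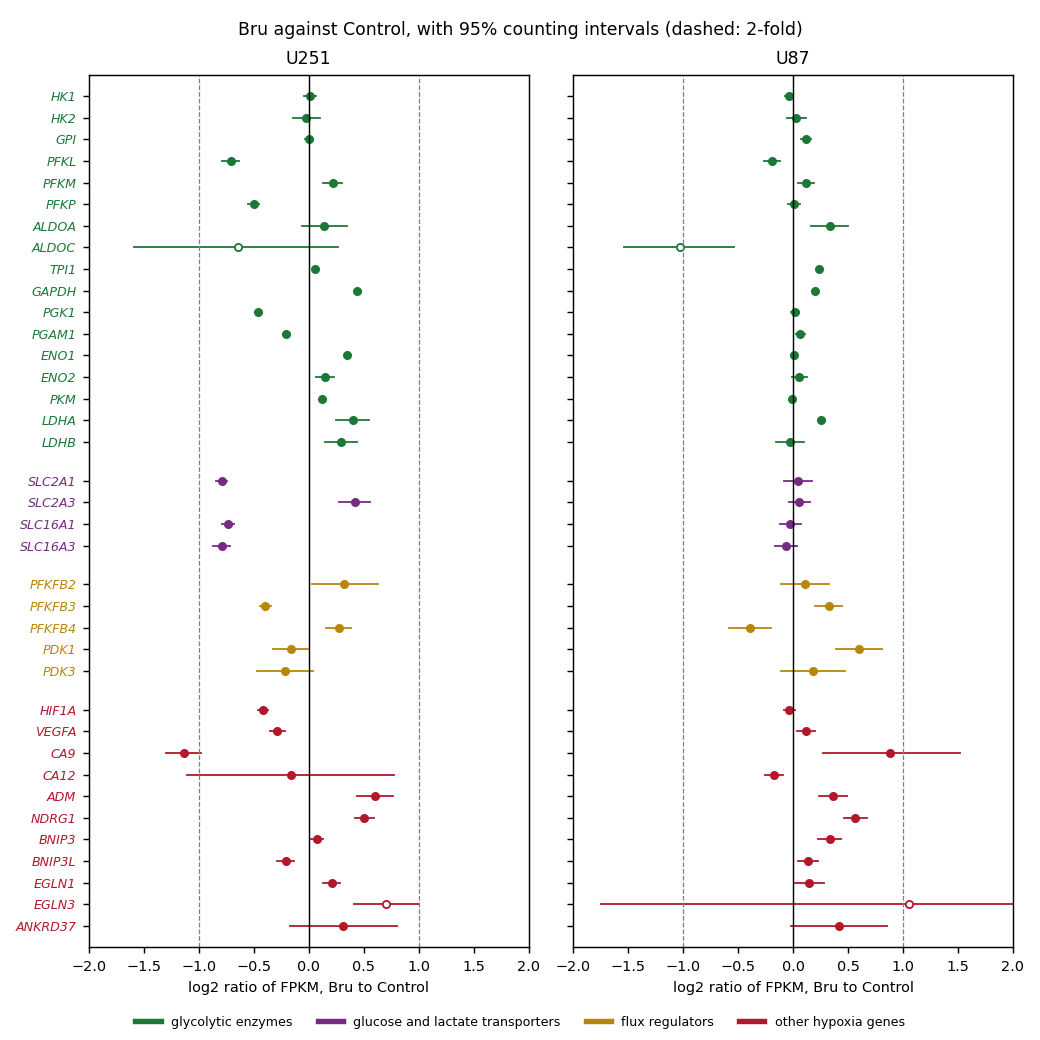
Log2 ratio of FPKM of Bru to Control without a pseudocount (points) and its exact 95% counting interval (lines) for the 37 genes in U251 and U87, open points for genes under the minimum level. Dashed lines mark 2-fold. The EGLN3 interval in U87 runs past the axis, and CA9 lies beyond 2-fold lower in U251 and above 0 in U87.

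Enzymes of the pathway did not share one direction in U251. The 16 enzymes that passed the minimum level had log2 ratios from -0.71 to 0.44 with a median of 0.09, and 11 lay above 0. In U87 they ranged from -0.19 to 0.33 with a median of 0.04, and 12 lay above 0. At the first steps, HK1, the housekeeping hexokinase, had FPKM of 41.3, 41.7, 106 and 104. HK2, the inducible hexokinase, had FPKM of 8.81, 8.68, 20.7 and 21.1. GPI, the isomerase, had FPKM of 68.8, 69.0, 44.9 and 48.7. All 3 were nearly level between Control and Bru, with log2 ratios between -0.03 and 0.12.

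The phosphofructokinases, which set the committed step, were not level in U251. PFKL (ENSG00000141959), the liver-type subunit, had FPKM of 21.3 and 13.0 for Control and Bru of U251, a log2 ratio of -0.71 (95% interval -0.79 to -0.63), and of 19.5 and 17.1 in U87, a log2 ratio of -0.19 (-0.27 to -0.12). PFKP, the platelet type, had FPKM of 80.5 and 56.9 in U251 and of 64.0 and 64.3 in U87, log2 ratios of -0.50 and 0.01. PFKM, the muscle type, had FPKM of 13.2 and 15.3 in U251 and of 23.5 and 25.5 in U87, log2 ratios of 0.21 and 0.12. The summed FPKM of the 3 was 115 in Control and 85.3 in Bru of U251, and it was 107 in both U87 libraries.

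Of the enzymes in the middle of the pathway, GAPDH had log2 ratios of 0.44 (95% interval 0.42 to 0.46) in U251 and 0.20 (0.18 to 0.22) in U87. PGK1, which makes the first ATP, had FPKM of 235, 171, 127 and 129 and log2 ratios of -0.46 (-0.49 to -0.44) and 0.01 (-0.02 to 0.05). PGAM1, the mutase, had FPKM of 318, 276, 208 and 218 and log2 ratios of -0.21 and 0.07. These 3 enzymes act one after another, and in U251 the first was higher in Bru and the other two were lower. TPI1, the triose isomerase, had FPKM of 447, 466, 412 and 483 and log2 ratios of 0.06 and 0.23. Of the 50-base stretches, 30.7% in PGAM1, 17.7% in GAPDH and 12.6% in TPI1 also occur in other genes, among them pseudogenes, so that their counts are uncertain to that extent.

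At the end of the pathway, log2 ratios in U251 were above 0. ENO1 had 0.34 (95% interval 0.33 to 0.36) in U251 and 0.01 in U87, where its interval included 0. ENO2, the neuronal enolase, had FPKM of 26.9, 29.8, 46.0 and 47.8 and log2 ratios of 0.15 and 0.05. PKM had log2 ratios of 0.12 and -0.01. LDHA had log2 ratios of 0.39 (0.25 to 0.55) and 0.25 (0.23 to 0.28), and LDHB had 0.29 (0.15 to 0.44) and -0.02 (-0.15 to 0.10). LDHA was the member of this end of the pathway with an interval above 0 in both lines.

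The aldolases had low FPKM as counted beside the other steps. ALDOA, the common aldolase, had FPKM of 4.77, 5.26, 7.52 and 9.48 and log2 ratios of 0.14 (95% interval -0.07 to 0.35) and 0.33 (0.17 to 0.50). Of its exon bases, 53.5% lie in other genes, 42.3% in AC093512.2 on the same strand. Whether the counting used strand is not given in the sources used here. Reads on the same-strand bases cannot be assigned with certainty in either case, so the level of ALDOA is uncertain. ALDOC, the brain aldolase, had 30, 17, 108 and 51 reads. Its log2 ratio was -1.03 in U87 without a pseudocount (95% interval -1.54 to -0.54), and its level of 0.96 FPKM on average kept it out of the counts above.

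Of the 4 transporters, 3 stood lower in U251 Bru. SLC2A1, SLC16A1 and SLC16A3 had log2 ratios of -0.79 (95% interval -0.84 to -0.74), -0.73 (-0.79 to -0.68) and -0.79 (-0.87 to -0.72) there, and SLC2A3 had 0.41 (0.28 to 0.56). In U87 the log2 ratios of the 4 lay between -0.06 and 0.06, and each interval included 0. The summed FPKM of the 4 went from 185 to 113 between Control and Bru of U251 and from 58.7 to 58.9 in U87. The difference of the log2 ratios, U251 minus U87, was -0.84 (-0.97 to -0.70) for SLC2A1, -0.71 (-0.82 to -0.60) for SLC16A1 and -0.73 (-0.85 to -0.61) for SLC16A3, with counting error only. The 2 Control libraries differed in the same genes, and U87 had the lower level of each.

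**Figure D3:**
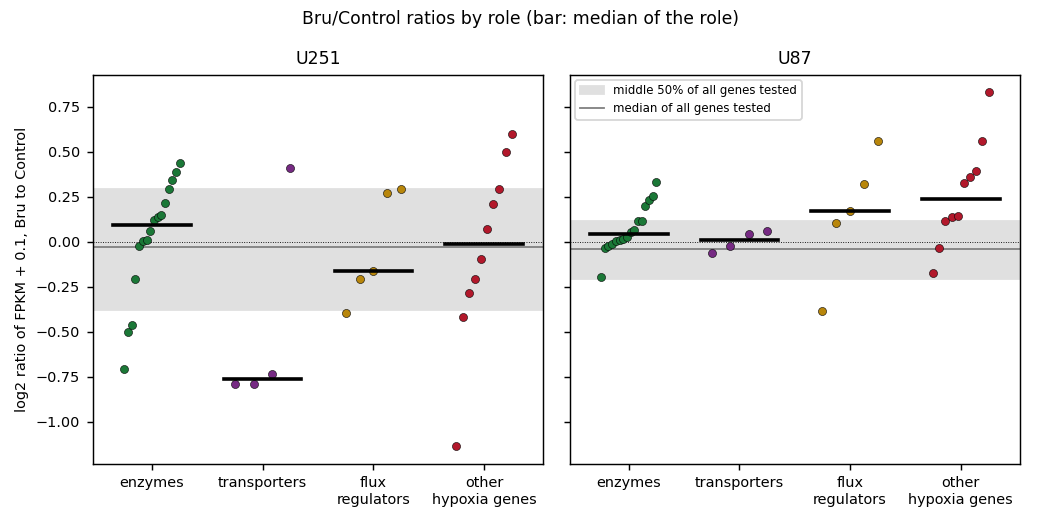
Log2 ratio of FPKM + 0.1 of Bru to Control for the 35 members that passed the minimum level, by role, with the median of each role as a bar and the middle 50% of all genes tested as a grey band. The median of the transporters is -0.76 in U251 and 0.01 in U87, and that of the other hypoxia genes is -0.01 and 0.24.

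Of the 5 regulators of flux, 3 had intervals on opposite sides of 0 in U251 and U87 (background 5.14% of all genes). PFKFB3, which makes the activator of phosphofructokinase, had FPKM of 57.9, 44.0, 9.07 and 11.4 and log2 ratios of -0.39 (95% interval -0.45 to -0.34) in U251 and 0.32 (0.20 to 0.45) in U87. PFKFB4, another enzyme of this kind, had FPKM of 9.17, 11.1, 4.88 and 3.72 and log2 ratios of 0.27 (0.16 to 0.39) and -0.38 (-0.58 to -0.20). The pair thus stood on opposite sides of 0 in each line, and the order was turned between the lines. PFKFB2 had FPKM of 0.832, 1.04, 1.80 and 1.94 and log2 ratios of 0.29 and 0.10. PDK1, a kinase that shuts pyruvate dehydrogenase, had FPKM of 2.38, 2.12, 1.14 and 1.73 and log2 ratios of -0.16 (-0.33 to -0.01) and 0.56 (0.39 to 0.81). The upper end of its U251 interval was -0.0082. Centring ratios on the median of all genes moved those of U251 up by 0.028, and this interval then included 0. PDK3, another such kinase, had FPKM of 2.86, 2.46, 2.18 and 2.47, and its intervals included 0 in both lines. PFKFB3 made up 85.3% and 78.4% of the summed FPKM of PFKFB2, PFKFB3 and PFKFB4 in U251 and 57.6% and 66.7% in U87.

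The other hypoxia genes were set beside the glycolytic members. The 25 glycolytic members tested had medians of 0.01 for U251 and 0.05 for U87 on the log2 scale, and 14 and 18 lay above 0. Of the 10 other hypoxia genes tested, the medians were -0.01 and 0.24, and 5 and 8 lay above 0. CA12 passed the minimum level only through U87. Its U251 ratio, from 24 and 19 reads, is nonetheless among those behind the U251 median. The summed FPKM of the 26 glycolytic members went from 3426 to 3735 in U251 and from 3432 to 3701 in U87, and that of the 11 other hypoxia genes went from 266 to 233 in U251 and from 181 to 195 in U87.

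Among signalling targets, ADM (ENSG00000148926, chr11:10304680-10307397), the vasodilator adrenomedullin, had FPKM of 9.51, 14.5, 18.9 and 24.3 and log2 ratios of 0.60 (95% interval 0.44 to 0.77) in U251 and 0.36 (0.24 to 0.49) in U87. NDRG1, a stress-induced gene, had FPKM of 10.2, 14.5, 7.003 and 10.4 and log2 ratios of 0.50 (0.42 to 0.59) and 0.56 (0.46 to 0.67). Both were higher in Bru in either line. VEGFA, the angiogenic growth factor, had FPKM of 14.6, 11.9, 9.02 and 9.79 and log2 ratios of -0.28 (-0.35 to -0.22) and 0.12 (0.04 to 0.20). HIF1A itself had log2 ratios of -0.42 (-0.46 to -0.37) and -0.03 (-0.08 to 0.01).

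CA9 had the lowest log2 ratio of the members in U251, -1.13 (95% interval -1.30 to -0.98), and the highest in U87, 0.83 (0.27 to 1.52), where it rested on 36 and 64 reads. Of its exon bases, 38.5% lie in ARHGEF39 on the opposite strand, which had 706, 394, 203 and 210 reads. With the reads of both genes summed, a choice made after the data were seen, the log2 ratio was -0.94 (-1.05 to -0.82) in U251, no longer past 2-fold, and 0.25 in U87, with an interval that included 0. CA12 had log2 ratios of -0.09 (-1.11 to 0.77) from 24 and 19 reads in U251 and -0.17 (-0.25 to -0.09) in U87.

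The mitophagy receptors BNIP3 and BNIP3L had FPKM of 49.6, 52.2, 14.8 and 18.6 and of 35.7, 30.9, 24.6 and 27.1. Their log2 ratios were 0.07 and 0.33 for BNIP3 and -0.21 (95% interval -0.28 to -0.13) and 0.14 (0.05 to 0.23) for BNIP3L. EGLN1 had 0.21 (0.13 to 0.29) and 0.15 (0.01 to 0.28). EGLN3 had 0.65 in U251 (interval of the ratio without a pseudocount 0.407 to 1.001), and in U87 the depth of 2 and 4 reads did not allow a difference to be seen. ANKRD37, an ankyrin repeat gene induced by HIF1A, had FPKM of 1.31, 1.63, 1.74 and 2.32, and its intervals included 0 in both lines. Of its exon bases, 35.2% lie in UFSP2 on the opposite strand.

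The 2 lines were also compared for the same gene. The difference of log2 ratios, U251 minus U87, had an interval without 0 in 24 of the 35 members tested (background 49.8%), by counting error only. This share and the next depend on read depth, for which the background was not matched. The 2 intervals lay on opposite sides of 0 in 7 of the 35 (background 5.14%), namely PGAM1, PFKFB3, PFKFB4, PDK1, VEGFA, CA9 and BNIP3L. The lower value was that of U251 except in PFKFB4. How all genes with such intervals divide by direction was not counted. PDK1 no longer had intervals on opposite sides of 0 once ratios were centred on the median of all genes.

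Further genes of the same pathways were read from lists beside the members. Of 21 further hypoxia targets tested, 6 lay above 0 and 15 below in U251, with a median log2 ratio of -0.33, and 11 above and 10 below in U87, with a median of 0.01. In both lines 0 of the 21 were past 2-fold in either direction. At 1.5-fold, 0 were higher (background 11.3%) and 3 lower (background 15.6%) in U251. In U87, 2 were higher (background 4.56%) and 1 was lower (background 4.49%). INSIG2, a retention factor of sterol sensing, had log2 ratios of -0.34 and -0.60. STC2, a secreted stanniocalcin, had -0.33 and 0.60, and FUT11, a fucosyltransferase, had -0.37 and -0.53. Of 9 regulators of the HIF pathway tested, the medians were -0.03 and 0.08, and the oxygen sensor EGLN2 had -0.74 in U251 and 0.08 in U87. The coactivators EP300 and CREBBP had 0.37 and 0.20 in U251 and 0.19 and 0.09 in U87.

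Neighbouring pathways were also read at 1.5-fold. Past it in either line were 0 of 10 genes of pyruvate entry into mitochondria and 0 of 7 of the pentose phosphate pathway. The backgrounds were 11.3% higher and 15.6% lower in U251, and 4.56% and 4.49% in U87. Among the 10 genes of pyruvate entry tested, medians were 0.25 for U251 and -0.10 for U87. MPC1, a subunit of the pyruvate carrier, had log2 ratios of 0.32 and -0.41. PDP1, a phosphatase that opens pyruvate dehydrogenase, had -0.28 and -0.51. PDHX, a pyruvate dehydrogenase component, had 0.42 and 0.25. The 7 genes of the pentose phosphate pathway had medians of -0.23 and -0.04, with -0.46 and -0.04 for PGD, -0.34 and -0.08 for TKT, and -0.03 and -0.45 for RPIA. Of 15 further isozymes of glycolysis, 5 passed the minimum level, with medians of -0.60 and -0.05. HKDC1, a hexokinase domain gene, had 44, 11, 598 and 456 reads and log2 ratios of -1.31 and -0.33. It passed the minimum level only through U87, with FPKM of 0.493 and 0.139 in U251. Its U251 ratio is nonetheless among those behind the median there. PGAM4, a near copy of PGAM1, had 36, 18, 13 and 29 reads and log2 ratios of -0.78 (95% interval -1.7 to 0.03) and 1.13 (0.22 to 2.28). ENO3, the muscle enolase, had 0.74 and -0.05.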

How the data were processed

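For each of the 4 libraries, the deposited values are FPKM, computed by the authors per gene and given with gene lengths. The submitters' processing notes name HISAT2 2.0.5, StringTie 1.3.3b, featureCounts 1.5.0-p3 and DESeq2 1.16.1 without roles, and the build hg18, whereas the coordinates of 58735 of 58735 genes equal those of GENCODE release 29 on GRCh38. Per the labels, libraries were made from 3 µg of total RNA with the NEB Next Ultra kit and read in pairs.

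FPKM multiplied by length was a whole multiple of 1 step in every library, with a largest deviation of 4.35e-05 reads, which gave back reads and library sizes. These sizes were not the totals of reads on genes. They were 0.978 and 1.04 times the total in Control and Bru of U251, and 0.990 and 1.02 times in those of U87. No count test was run, since each condition has 1 library. Log2 ratios were computed on FPKM + 0.1, a gene being kept where its FPKM averaged 1 or more over all libraries, and intervals are Clopper-Pearson intervals of the share of reads, turned into ratios without a pseudocount. Past 2-fold means an absolute log2 ratio above 1. The recovery of reads and the intervals were tested on simulated data.

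Members and lists were chosen with earlier results of these data known. All members are named, and of each other list the 3 genes with the largest mean absolute log2 ratio over both lines and any gene past 2-fold in both. Alternatives were a pseudocount of 1 or 0.01, centring on the median of all genes, TPM, the total of recovered reads, leaving out mitochondrially encoded genes, no filter, and a minimum mean FPKM of 5. Overlaps and shared 50-base stretches were computed from GENCODE 29 exons and transcripts. Python 3.11.15, numpy 2.4.6, pandas 2.3.3, scipy 1.17.1, matplotlib 3.10.9 and R 4.3.3 were used.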

Additional observations from a re-analysis of the deposited data

Results flagged for a closer look

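In 7 genes the Bru library was above Control in one line and below it in the other, with counting intervals on opposite sides of 0, beside 5.14% of all genes tested. The difference was not tested, because each condition has 1 library. The log2 ratio of U251 minus that of U87 was -0.27 for PGAM1, -0.72 for PFKFB3, 0.65 for PFKFB4, -0.72 for PDK1, -0.40 for VEGFA, -1.97 for CA9 and -0.34 for BNIP3L. That of CA9 rests on 36 and 64 reads in U87, and with the reads of ARHGEF39 added its U87 interval included 0. Of the 50-base stretches in PGAM1, 30.7% also occur elsewhere. The U251 interval of PDK1 included 0 once ratios were centred on the median of all genes.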

How the results depend on the processing

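The number of members past 2-fold stayed at 1 in U251 and 0 in U87 under each alternative set for all members, and it lay between 11 and 14 for U87 Control against U251 Control, where the reported number is 12. Summing CA9 with ARHGEF39, chosen after the data were seen, took CA9 below 2-fold in U251, and sums with overlapping genes were also made for ALDOA, ANKRD37 and LDHB. ANKRD37 summed with UFSP2 had log2 ratios of 0.50 (0.32 to 0.69) in U251 and -0.07 in U87. Most of these reads were those of UFSP2, with 355 and 456 in U251 beside 71 and 78 of ANKRD37. UFSP2 alone had log2 ratios of 0.54 and -0.18, so the sum says little about ANKRD37. The median log2 ratio of glycolytic members in U251 was 0.0987 with the total of recovered reads and 0.0901 without mitochondrially encoded genes, compared with 0.01. That of the other hypoxia genes in U251 was 0.0741 without a filter (11 genes) and -0.0946 with a minimum mean FPKM of 5 (9 genes), compared with -0.01. The value of -0.0946 is the ratio of CA12, from 24 and 19 reads. Rescaling moved a log2 ratio of a member by at most 0.09 between Bru and Control, and the sign of HK2 in U251 and of HK1, PKM, LDHB, SLC16A1 and HIF1A in U87 changed under at least 1 rescaling. Intervals were counted on the reported scaling only. That of PDK1 in U251 ended at -0.0082 and included 0 after centring. There is 1 library per condition, so the spread between cultures is unknown. At this depth, differences of ALDOC, ANKRD37 and CA12 in U251 and of EGLN3 and CA9 in U87 rest on few reads.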
